A study of Arabidopsis thaliana with 6 samples.

Results

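The genes described are *ALD1* (AT2G13810), *SARD4* (AT5G52810), *FMO1* (AT1G19250) and the legume lectin gene AT5G03350, which is called *LLP1* here, 4 of the 22183 genes in the deposited tables. They were chosen by locus, as the enzymes that make pipecolic acid and its N-hydroxylated form and a soluble lectin of systemic resistance. Each has 1 gene model in the tables. Plants grown for 4 weeks in short days received a spray of water or of INA (2,6-dichloroisonicotinic acid, a synthetic analog of SA, salicylic acid) at 300 µM. Leaf RNA was taken 12 h later, and samples of 3 independent experiments were pooled before sequencing, which leaves 1 library a condition. The libraries are wild-type Col with water and Col, the *npr1-1* mutant and the *hac1-2 hac5-2* double mutant (*hac1/5*) with INA, and all plants share the Col background. In the plots a plus sign joins each genotype to INA, and Col alone is the water library. *npr1-1* is a missense allele of *NPR1*, which encodes the SA coactivator, and *hac1/5* carries mutations in 2 genes for CBP/p300-family histone acetyltransferases. Mutant leaves without INA are not analysed here, and what the mutations change before treatment therefore cannot be told apart from what they change in the response.

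Pipecolic acid is a non-protein amino acid made from lysine in plastids. The aminotransferase ALD1 removes the alpha-amino group of lysine, the product cyclizes, and the reductase SARD4 turns it into pipecolic acid. The monooxygenase FMO1 then adds a hydroxyl group to the ring nitrogen, which gives N-hydroxypipecolic acid (NHP), a signal of systemic acquired resistance that accumulates in infected and in distant leaves of *Arabidopsis*. The glucosyltransferase UGT76B1 can take NHP out of the active pool. LLP1 is a lectin-like protein of the cell periphery with a role in systemic acquired resistance.

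With 1 library for each condition, no difference has a replicate check within these libraries. The authors report that RT-qPCR (quantitative PCR of reverse-transcribed RNA) of randomly selected genes bore out their RNA-seq, and they list primers for *ALD1*. Their RT-qPCR values were not used here. Ratios are given with a 95% Clopper-Pearson confidence interval that covers counting error only. Each interval or limit is that of the reads as counted, also where the fold beside it puts 3 reads in place of 0. An exact binomial test (two-sided, with Benjamini-Hochberg adjustment over all gene models) was run on the read counts, and it compares a pair of libraries and not the conditions. A gene was counted as called at a ratio of at least 2-fold, with counts under 3 set to 3, among genes with at least 10 reads in 1 of the 2 libraries. The libraries held 6698569 to 7146973 reads on gene models, and a count of 0 allows up to 3 reads, or 0.420 to 0.448 CPM (reads normalised to library size). *HAC5* had 272 reads in water-treated Col, 122 in INA-treated Col, 248 in INA-treated *npr1-1* and 2 in INA-treated *hac1/5*, so the library labelled *hac1/5* was low in *HAC5*. *HAC1*, with 69, 28, 63 and 25 reads, did not set that library apart from INA-treated Col. Reads cannot check the missense allele *npr1-1*. All 4 leaf markers were detected in the 4 libraries, with a summed level of 9169 CPM in INA-treated Col and 17049 to 29862 in the others. Most of that sum is *LHCB1.3*, with 187650, 51396, 94072 and 141150 reads in the order given for *HAC5*. The reads were 15272, 11105, 16973 and 9879 for *RBCS1A*, 3652, 2970, 3101 and 2690 for *RCA* and 97, 61, 56 and 84 for *LHCA3*. All 4 markers were lower in INA-treated than in water-treated Col, at ratios of 0.265 (*LHCB1.3*), 0.704 (*RBCS1A*), 0.788 (*RCA*) and 0.609 (*LHCA3*). INA-treated *hac1/5* over INA-treated Col was 2.83 for *LHCB1.3* and 1.42 for *LHCA3*, but 0.916 for *RBCS1A* and 0.932 for *RCA*. Of 8 markers of root, flower and seed, 2 are in the tables, with 0 to 21 reads in sum. Whether the levels of the leaf markers had a part in the results below was not tested. In leaf RNA, fewer cells of a type and less RNA per cell cannot be told apart.

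The sequences just upstream of the genes are shown because all 4 genes differed by over 2-fold between water- and INA-treated Col. The submitters' processing notes name TAIR10, and 99.95% of the gene models with a locus in the TAIR10.1 reference lie on the same chromosome and strand and overlap it. The 300 bases before the RefSeq gene start are given in lower case from 5′ to 3′ on the gene's strand. Capitals mark matches, on both strands, to TGACG (the core bound by TGA factors), TTGAC (the W-box core bound by WRKY factors) and GAAATTT (the core of an element bound by SARD1 and CBP60g). Matches may overlap each other.
*ALD1*, plus strand, chr2:5768117-5768416: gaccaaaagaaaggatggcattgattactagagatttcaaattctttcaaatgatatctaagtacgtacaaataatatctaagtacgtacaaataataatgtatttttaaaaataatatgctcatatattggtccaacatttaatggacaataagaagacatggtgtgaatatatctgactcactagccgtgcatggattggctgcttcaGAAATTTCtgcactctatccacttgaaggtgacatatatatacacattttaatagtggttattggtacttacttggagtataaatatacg
*FMO1*, minus strand, chr1:6653196-6653495: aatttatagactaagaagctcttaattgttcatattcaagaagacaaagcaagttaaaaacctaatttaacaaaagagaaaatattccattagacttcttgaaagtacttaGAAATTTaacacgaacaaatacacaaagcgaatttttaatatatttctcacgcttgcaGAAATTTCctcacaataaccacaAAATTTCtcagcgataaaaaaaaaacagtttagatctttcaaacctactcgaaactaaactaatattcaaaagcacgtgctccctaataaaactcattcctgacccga
*LLP1*, minus strand, chr5:816671-816970: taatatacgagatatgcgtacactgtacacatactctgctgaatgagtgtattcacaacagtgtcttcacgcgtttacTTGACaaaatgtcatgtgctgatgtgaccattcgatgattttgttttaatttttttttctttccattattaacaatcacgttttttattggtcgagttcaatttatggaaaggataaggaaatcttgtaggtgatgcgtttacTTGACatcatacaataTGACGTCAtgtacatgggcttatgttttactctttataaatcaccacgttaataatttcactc
The *ALD1* window holds GAAATTT on both strands at 1 place, 83 to 90 bases before the start. The *FMO1* window holds 4 matches to GAAATTT, of which an overlapping pair lies 124 to 131 bases before the start. Neither window holds TGACG or TTGAC. The *LLP1* window holds TGACG on both strands in the palindrome TGACGTCA, 56 to 63 bases before the start, TTGAC at 75 to 79 and at 218 to 222 bases, and no GAAATTT. The window of *SARD4* lies inside the annotated neighbour AT5G52800 and is not printed, and it holds TTGAC at 2 places. Of 27437 windows of protein-coding genes, GAAATTT is in 14.9%, TGACG in 21.3% and TTGAC in 50.4%. A match describes the letters and is not evidence of binding.

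*ALD1*, the first enzyme of the route (chromosome 2, from 5768446 to 5772259, forward strand), had 0 reads in water-treated Col, 796 in INA-treated Col, 4 in INA-treated *npr1-1* and 188 in INA-treated *hac1/5*. In RPKM (reads normalised to gene length and library size) these are 72.6 in INA-treated Col, 0.389 in INA-treated *npr1-1* and 17.6 in INA-treated *hac1/5*. *ALD1* was thus detected in all INA-treated libraries but at 4 reads in INA-treated *npr1-1*, and it was not detected in water-treated Col, where 3 reads would be 0.282 RPKM. With 3 reads in place of 0, *ALD1* was 257-fold higher in INA-treated Col than in water-treated Col (lower 95% limit 208, from the counts 796 and 0). It was 187-fold lower in INA-treated *npr1-1* than in INA-treated Col (ratio 0.00536, 95% confidence interval 0.00146 to 0.0138) and 4.11-fold lower in INA-treated *hac1/5* (ratio 0.243, 0.206 to 0.285). The 4 reads of INA-treated *npr1-1* and 0 of water-treated Col were not distinguishable (exact binomial test, two-sided, adjusted p = 0.207). With 3 reads in place of 0, *ALD1* was 62.5-fold higher in INA-treated *hac1/5* than in water-treated Col (lower 95% limit 50.3).

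*SARD4*, the reductase that completes pipecolic acid (chromosome 5, from 21399331 to 21400603, forward strand), had 368 reads in water-treated Col, 3156 in INA-treated Col, 667 in INA-treated *npr1-1* and 2595 in INA-treated *hac1/5*, or 41.8, 347, 78.2 and 294 RPKM. Unlike *ALD1* and *FMO1*, *SARD4* was well detected without INA. It was 8.30-fold higher in INA-treated Col than in water-treated Col (95% confidence interval 7.45 to 9.28) and 4.43-fold lower in INA-treated *npr1-1* than in INA-treated Col (ratio 0.225, 0.207 to 0.245). The INA-treated *npr1-1* library stayed 1.87-fold above water-treated Col (1.65 to 2.13), short of 2-fold but beyond counting error. The ratio of INA-treated *hac1/5* to INA-treated Col was 0.846 (0.803 to 0.892), which is 1.18-fold lower, beyond counting error (exact binomial test, adjusted p = 3.4e-09) and within 2-fold. The gene AT5G52800, which overlaps its 5′ end on the same strand, had 0 to 7 reads in the 4 libraries.

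*FMO1*, the N-hydroxylase of pipecolic acid (chromosome 1, from 6650529 to 6653078, reverse strand), had 0 reads in water-treated Col, 293 in INA-treated Col, 0 in INA-treated *npr1-1* and 82 in INA-treated *hac1/5*. Its RPKM was 23.5 in INA-treated Col and 6.77 in INA-treated *hac1/5*, and 3 reads would be 0.248 RPKM in water-treated Col and 0.257 in INA-treated *npr1-1*. *FMO1* was therefore detected in INA-treated Col and *hac1/5* and in neither of the other libraries. With 3 reads in place of 0, *FMO1* was 94.6-fold higher in INA-treated Col than in water-treated Col (lower 95% limit 76.4). It was 91.5-fold lower in INA-treated *npr1-1* than in INA-treated Col (lower 95% limit 74.0). In INA-treated *hac1/5* it was 3.47-fold lower than in INA-treated Col (ratio 0.288, 95% confidence interval 0.223 to 0.369). Against water-treated Col, with 3 reads in place of 0, it was 27.2-fold higher there (lower 95% limit 21.7). No fold is given for INA-treated *npr1-1* against water-treated Col, since both had 0 reads. The neighbour AT1G19240, on the same strand, had 21 reads in water-treated Col, 82 in INA-treated Col, 27 in INA-treated *npr1-1* and 72 in INA-treated *hac1/5*.

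*LLP1*, the lectin gene (chromosome 5, from 815674 to 816658, reverse strand), had 26 reads in water-treated Col, 14075 in INA-treated Col, 1216 in INA-treated *npr1-1* and 32464 in INA-treated *hac1/5*, or 3.81, 1999, 184 and 4746 RPKM. It was the most abundant of the 4 genes per length in each INA-treated library, and *SARD4* was the most abundant in water-treated Col. By RPKM *LLP1* ranked 10133 of the 19592 genes with reads in water-treated Col, 52 of 19936 in INA-treated Col, 622 of 19834 in INA-treated *npr1-1* and 15 of 19597 in INA-treated *hac1/5*. It was 524-fold higher in INA-treated Col than in water-treated Col (95% confidence interval 358 to 803) and 10.8-fold lower in INA-treated *npr1-1* than in INA-treated Col (ratio 0.0922, 0.0869 to 0.0977). *LLP1* remained 48.3-fold above water-treated Col in INA-treated *npr1-1* (32.8 to 74.3), rank 8 of 14682 genes for that ratio. In INA-treated *hac1/5* *LLP1* was 2.37-fold higher than in INA-treated Col (2.33 to 2.42) and 1244-fold higher than in water-treated Col (849 to 1905), rank 1 of 15331 genes with counts under 3 set to 3. With a biological coefficient of variation of 0.2 assumed in edgeR's exact test, the difference between INA-treated *hac1/5* and INA-treated Col had an adjusted p of 0.0659. The neighbour AT5G03345, on the opposite strand, had 9 to 24 reads.

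**Figure D1:**
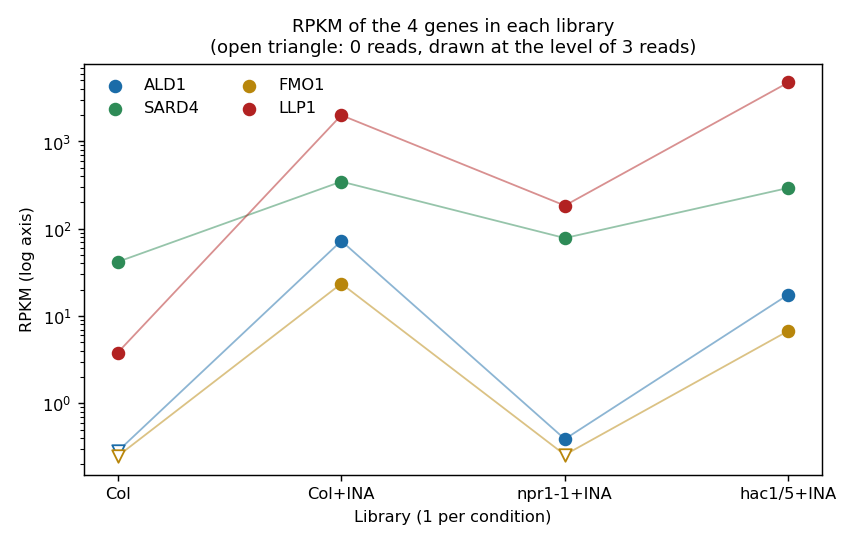
RPKM (log axis) of *ALD1*, *SARD4*, *FMO1* and *LLP1* in each of the 4 libraries, 1 library per condition, with lines only to guide the eye. Open triangles stand for 0 reads and are drawn at the level of 3 reads. *LLP1* has its highest value, 4746, in INA-treated *hac1/5*, and the other 3 genes have theirs in INA-treated Col.

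The first comparison asks what INA changed in the wild type. All 4 genes were called higher in INA-treated Col than in water-treated Col, where 23.0% of the 15213 genes tested were. Their median log2 ratio was 7.28, with counts under 3 set to 3, beside 0.18 over all genes tested. The ranks of their ratios among these genes were 6 for *LLP1*, 16 for *ALD1*, 54 for *FMO1* and 628 for *SARD4*, with 0 reads set to 3 for *ALD1* and *FMO1*. The sizes were unequal: the ratio of *LLP1* was 63.1 times that of *SARD4* (exact 95% interval 42.3 to 98.1).

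The second comparison sets INA-treated *npr1-1* against INA-treated Col. All 4 genes were called lower in INA-treated *npr1-1* than in INA-treated Col, where 21.4% of the 15387 genes tested were, and their median log2 ratio was -4.98 beside -0.07 over all genes. The 3 enzyme genes and *LLP1* did not fall by 1 common factor. *LLP1* kept 9.22% of its INA-treated Col level and *SARD4* 22.5%, whereas *ALD1* kept 0.536%. The ratio of *SARD4* exceeded that of *LLP1* 2.45 times (2.21 to 2.71), and that of *LLP1* exceeded that of *ALD1* 17.2 times (6.67 to 63.4). Against water-treated Col, 2 of the 4 genes had enough reads to be counted, and 1 of them, *LLP1*, was called higher in INA-treated *npr1-1*, where 9.34% of 14682 genes were called higher and 4.92% lower. *SARD4*, the other, was within 2-fold.

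The third comparison asks the same of HAC1 and HAC5. *ALD1* and *FMO1* were called lower in INA-treated *hac1/5* than in INA-treated Col, where 10.7% of the 15097 genes tested were, *LLP1* was called higher, where 9.02% were, and *SARD4* was within 2-fold. With the median ratio of all genes set to 0 in place of 0.13, these shares were 12.3% and 6.74%, and the calls of the 4 genes did not change. *ALD1* kept 24.3% of its INA-treated Col level, *FMO1* 28.8% and *SARD4* 84.6%, while *LLP1* stood at 237%. The ratios of *ALD1* and *FMO1* were not distinguishable from each other (0.844 times, exact 95% interval 0.625 to 1.15). That of *SARD4* was 3.48 times (2.94 to 4.14) that of *ALD1* and 2.94 times (2.28 to 3.82) that of *FMO1*, and that of *LLP1* was 9.77 times (8.31 to 11.5) that of *ALD1*. *ALD1* and *FMO1* on one side and *LLP1* on the other thus differed from INA-treated Col in opposite directions. All 4 genes were nevertheless called higher in INA-treated *hac1/5* than in water-treated Col, where 26.3% of genes were (18.4% with the median set to 0), and higher than in INA-treated *npr1-1*, where 23.8% were. The comparisons with each mutant share the INA-treated Col library.

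**Figure D2:**
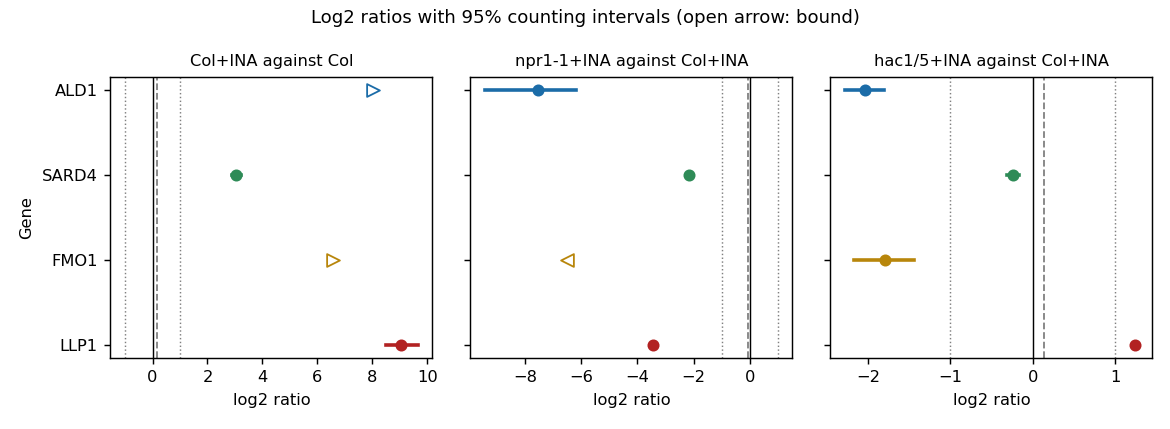
Log2 ratios of the 4 genes in the 3 comparisons, with 95% confidence intervals that cover counting error only. Open arrows are bounds computed against 3 reads, dotted lines mark 2-fold and the dashed line is the median of all genes tested. *LLP1* is at 1.25 and *ALD1* at -2.04 in INA-treated *hac1/5* against INA-treated Col. Each panel has its own scale.

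**Figure D3:**
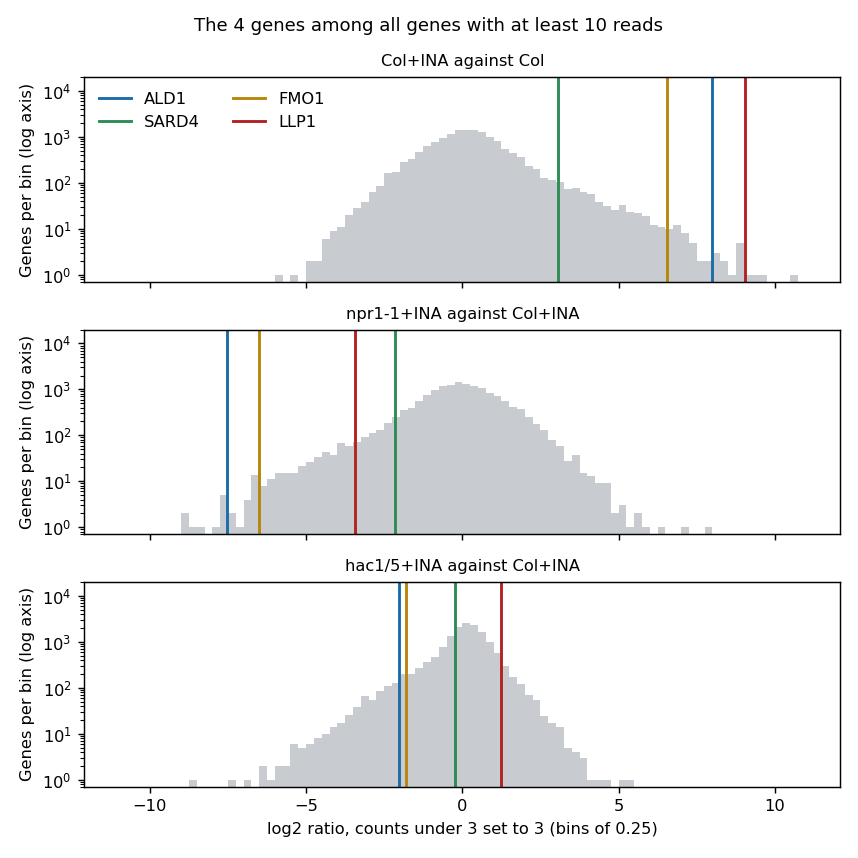
The log2 ratios of all genes with at least 10 reads in 1 of the 2 libraries, as histograms with a log axis for the number of genes, with vertical lines at the 4 genes. In the upper panel *LLP1*, *ALD1* and *FMO1* lie in the right tail, at 9.03, 8.01 and 6.56. In the lower panel *SARD4*, at -0.24, lies near the centre.

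The rest of the lysine route was examined in the same way, as the genes of lysine synthesis, lysine transport and NHP glucosylation. Of the 13 listed genes in the tables beside the 3 enzymes, 12 were tested for INA-treated Col against water-treated Col, and 2 were called higher, 0 lower and 10 neither, with a median log2 ratio of -0.08. The share called higher is near the 23.0% over all genes, of which 15.2% were called lower. The 2 genes are *UGT76B1* (AT3G11340) and *LHT1* (AT5G40780). *UGT76B1*, whose product glucosylates NHP and SA, had 0 reads in water-treated Col, 1443 in INA-treated Col, 0 in INA-treated *npr1-1* and 1635 in INA-treated *hac1/5*. With 3 reads in place of 0, *UGT76B1* was 466-fold higher in INA-treated Col than in water-treated Col (lower 95% limit 378). It was 451-fold lower in INA-treated *npr1-1* than in INA-treated Col, where the upper 95% limit of the ratio was 0.00273. It shares with *FMO1* the absence of reads in water-treated Col and INA-treated *npr1-1*, yet it was 1.17-fold higher in INA-treated *hac1/5* than in INA-treated Col (95% confidence interval 1.09 to 1.25) where *FMO1* was 3.47-fold lower. *LHT1*, a transporter of lysine, histidine and other amino acids, had 1, 44, 1 and 33 reads. With counts under 3 set to 3, *LHT1* was 14.2-fold higher in INA-treated Col than in water-treated Col. The ratio of the reads as counted, which rests on 1 read in water-treated Col, was 42.6 (7.26 to 1721). *AGD2*, the diaminopimelate aminotransferase of lysine synthesis to which ALD1 is related, had 724, 697, 1170 and 777 reads. Its ratio of INA-treated Col over water-treated Col was 0.932 (0.839 to 1.04), where that of *ALD1* was 257 with 3 reads in place of 0.

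Beside the 3 enzymes, 12 genes of the list were tested for INA-treated *npr1-1* against INA-treated Col. Of these, 3 were called higher, 2 lower and 7 neither, beside 18.6% higher and 21.4% lower over all genes. The 2 lower ones were *UGT76B1* and *LHT1*, in the direction of *ALD1*, *SARD4* and *FMO1*. The 3 higher ones, all of lysine synthesis, went the opposite way. They were *DAPB1* (dihydrodipicolinate reductase, AT2G44040), *DAPDC1* (diaminopimelate decarboxylase, AT3G14390) and *DHDPS2* (dihydrodipicolinate synthase, AT2G45440). *DAPB1* was 6.19-fold higher (4.41 to 8.89), *DAPDC1* 3.10-fold (2.60 to 3.71) and *DHDPS2* 2.00-fold (1.75 to 2.29). The interval of *DHDPS2* spans 2-fold. Within 2-fold in the 3 comparisons were the other aspartate kinase genes, *AK-LYS1* with 616, 447, 815 and 623 reads and *AK-LYS2* with 58, 33, 55 and 48, the epimerase gene *DAPF* with 507, 830, 638 and 840, and the decarboxylase gene *DAPDC2* with 322, 474, 762 and 657. Of the 12 genes tested for INA-treated *hac1/5* against INA-treated Col, 1 was called higher and 2 lower, close to the 9.02% and 10.7% over all genes. *DAPB1* was the higher one (2.83-fold, 1.95 to 4.17), with 43, 40, 232 and 110 reads, and *DHDPS1* and *AK3* were the lower ones. *DHDPS1* had 7, 10, 6 and 2 reads, and its difference was not beyond counting error after adjustment (exact binomial test, adjusted p = 0.117). *DAPB2*, with 0 to 3 reads, was not tested. In INA-treated *hac1/5* the aspartate kinase gene *AK3* (AT3G02020), at the entry of lysine synthesis, had 544 reads against 2238 in water-treated Col, 2220 in INA-treated Col and 2413 in INA-treated *npr1-1*. *AK3* was 3.97-fold lower in INA-treated *hac1/5* than in INA-treated Col (ratio 0.252, 0.229 to 0.277), close to the 4.11-fold of *ALD1*. Unlike *ALD1*, *AK3* was within 2-fold between INA-treated Col and water-treated Col (ratio 0.961, 0.905 to 1.02).

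**Figure D4:**
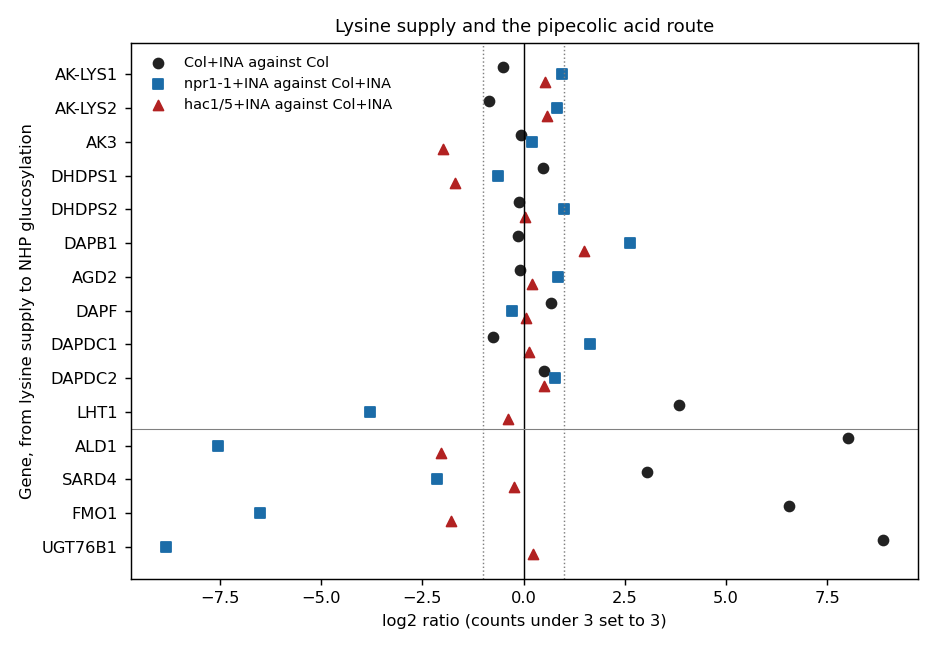
Log2 ratios of 15 genes from lysine synthesis (top) to NHP glucosylation (bottom) in 3 comparisons, with counts under 3 set to 3 and dotted lines at 2-fold. The genes under the horizontal line make or modify pipecolic acid and NHP. For INA-treated Col against water-treated Col they are at 8.01 (*ALD1*), 3.05 (*SARD4*), 6.56 (*FMO1*) and 8.86 (*UGT76B1*), whereas the genes of lysine synthesis lie within 2-fold. The transporter gene *LHT1*, drawn above the line, is at 3.83.

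Of 11 known regulators of these genes, 7 were tested for INA-treated Col against water-treated Col, and 6 were called higher and 0 lower, beside 23.0% and 15.2% of all genes. The 3 with the largest change were the transcription factor genes *SARD1* and *CBP60G* and the immune regulator *PAD4*. *SARD1* had 38 reads in water-treated Col, 1118 in INA-treated Col, 93 in INA-treated *npr1-1* and 782 in INA-treated *hac1/5*. *CBP60G* had 1, 51, 2 and 43 reads, and *PAD4* 105, 1548, 76 and 1009. Between INA-treated *hac1/5* and INA-treated Col all 7 regulators tested were within 2-fold, and a count of 0 lower is near the 10.7% over all genes. *SARD1* was at a ratio of 0.720 (95% confidence interval 0.656 to 0.789) and *PAD4* at 0.671 (0.619 to 0.727), whereas the transcription factor gene *WRKY33*, with 198, 1501, 170 and 2744 reads, was 1.88-fold higher (1.77 to 2.00). Of 8 tested between INA-treated *npr1-1* and INA-treated Col, 6 were called lower, beside 21.4% of all genes, and 1 was called higher, beside 18.6%. The higher one was *CAMTA2*, with 11 reads in INA-treated *npr1-1* and 1 in INA-treated Col.

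Beside *LLP1*, 15 genes known from long-distance signalling in systemic resistance were in the tables and tested for INA-treated Col against water-treated Col, and 8 were called higher and 3 lower, beside 23.0% and 15.2% of all genes. The 3 with the largest change were *AZI3*, *EARLI1*, which are lipid-transfer protein genes in tandem with *AZI1* and so alike that reads may be shared, and *PDLP5*, a gene for a plasmodesmata-located protein. *AZI3* had 0, 271, 2 and 34 reads, *EARLI1* 0, 192, 3 and 43, and *PDLP5* 14, 509, 19 and 126, in the order water-treated Col, INA-treated Col, INA-treated *npr1-1* and INA-treated *hac1/5*. They were 7.75-, 4.34- and 3.93-fold lower in INA-treated *hac1/5* than in INA-treated Col, the direction of *ALD1* and *FMO1* and opposite to that of *LLP1*. Of the 14 genes of the list tested there, 5 were called lower, 1 higher and 8 neither, beside 10.7% lower and 9.02% higher over all genes. *DIR1*, a lipid-transfer protein gene needed for the systemic signal, had 110 to 130 reads in all 4 libraries, whereas *DIR1-LIKE* had 49, 1, 44 and 6.

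The tables describe 6 genes as legume lectins, *LLP1* included. Of the 5 others, 4 were tested for INA-treated Col against water-treated Col, and 2 were called higher and 2 lower. Over all genes 23.0% were called higher and 15.2% lower. Between INA-treated *npr1-1* and INA-treated Col 3 of the others were tested. There 2 were called lower and 1 higher, beside 21.4% and 18.6% of all genes. AT3G16530 had 126 reads in water-treated Col, 1036 in INA-treated Col, 125 in INA-treated *npr1-1* and 1289 in INA-treated *hac1/5*, and AT3G15356 had 169, 585, 119 and 1034. Like *LLP1*, both were called higher in INA-treated Col than in water-treated Col, 7.96- and 3.35-fold, and lower in INA-treated *npr1-1* than in INA-treated Col. In INA-treated *npr1-1* AT3G16530 did not differ from water-treated Col beyond counting error (ratio 1.02, 95% confidence interval 0.794 to 1.32), whereas *LLP1* stayed 48.3-fold above it. AT3G16530 was 1.28-fold (1.18 to 1.39) and AT3G15356 1.82-fold (1.64 to 2.02) higher in INA-treated *hac1/5* than in INA-treated Col, in the direction of *LLP1* and within 2-fold. AT1G53060 and AT1G53070 went the other way with INA, from 18 to 2 and from 25 to 5 reads, and AT1G53080 had 1 read in each library.

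**Figure D5:**
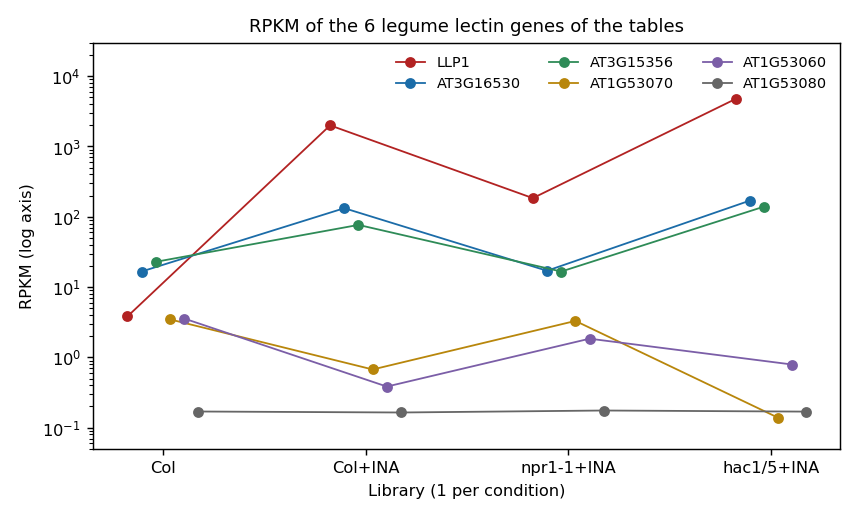
RPKM (log axis) of the 6 legume lectin genes in each of the 4 libraries, with lines only to guide the eye. *LLP1* reaches 1999 in INA-treated Col and 4746 in INA-treated *hac1/5*, while AT3G16530 reaches 133 and 170 in the same libraries.

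The genes most like each of the 4 were found by the root mean square difference, over the 4 libraries, between log2 levels centred on the mean of each gene. For *ALD1* the nearest was AT3G28510, a P-loop nucleoside triphosphate hydrolase, with 0, 958, 4 and 203 reads and a difference of 0.110, followed by AT1G57630, a TIR domain gene, at 0.373 and *PNP-A* at 0.429. *FMO1* was in place 7 for *ALD1*, and *ALD1* was in place 38 for *FMO1*, with counts under 3 set to 3. The nearest to *FMO1* were the zinc finger gene *ZAT7* (0, 287, 2 and 58 reads) at 0.212, the oxygenase gene AT3G13610 at 0.253 and the EF-hand gene AT3G47480 at 0.263. *SARD4* had much closer neighbours, *OXS3*, *LYM2* (a LysM protein gene) and the protein phosphatase gene AT1G34750, all at 0.048 to 0.050, and the other 3 genes were at 1.70 to 2.80 from it. *LLP1* had the least close ones, *GSTU4* (1, 367, 40 and 906 reads) at 0.875, *PCC1* at 0.957 and *WRKY54* (5, 750, 32 and 1537 reads) at 1.05. Likeness over 4 libraries is a description of these counts.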

How the data were processed

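RNA-seq of *Arabidopsis* leaves was used. The authors used SOAPaligner/soap2 with at most 2 mismatches, and the submitters' processing notes name TAIR10. Whether counting used strand, and what it did with reads matching more than 1 gene model, is not given in the sources used here. The authors deposited 3 tables, each of 2 libraries, with raw, whole-number read counts per gene model. Beside them stand RPKM values, which the authors scaled by gene model length and library total (0 is written as 0.001). Columns of the authors' own log2 ratios, p-values and FDR were not used, and 0 value columns belonged to no sample. Column names abbreviate the mutants, so columns were matched to samples with the help of the tables' titles, which spell the genotypes.

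The tables were joined to 25931 gene models of 22183 genes, and values of INA-treated Col did not conflict. Each gene was read from its gene model with the most reads. Library totals were 6920927 for water-treated Col and, with INA, 7146973 for Col, 6698569 for *npr1-1* and 6944614 for *hac1/5*. Tests, intervals and call rules are as given in the report, with an exact conditional odds ratio between 2 genes. The binomial test was checked on simulated data. The genes and lists were chosen with earlier results of these data known. Named are the 4 genes, every gene of the lysine list in the tables, the 3 of each other list with the largest absolute log2 ratio of INA-treated Col over water-treated Col and at least 10 reads in 1 library, and the 3 nearest genes; other genes were named after their values were seen. Legume lectins and flavin monooxygenases were taken from the tables' descriptions. Alternatives were TMM factors, DESeq2 size factors, centring on the median gene, edgeR's exact test with an assumed variation, log2(RPKM + 1), counts under 1 set to 1, no filter, a log2 ratio of 1.5, 2-fold with an adjusted p of at most 0.01, and reads summed over gene models. Upstream sequences are from RefSeq TAIR10.1. Software was edgeR 4.0.16 and DESeq2 1.42.0 under R 4.3.3, and SciPy 1.17.1, numpy 2.4.6, pandas 2.3.3 and matplotlib 3.10.9 under Python 3.11.15.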

Additional observations from a re-analysis of the deposited data

How the results depend on the processing

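Of the 11 alternatives, only some could change the log2 ratios of the 4 genes. These were TMM factors, DESeq2 size factors, centring on the median gene, log2(RPKM + 1) and counts under 1 set to 1. Under them each called direction in the 6 pairs of libraries kept its sign. The rest changed only the call rule, or summed over gene models where each gene has 1, so the sign could not change there. Calls were lost mainly where a variation between libraries was assumed. With edgeR's exact test, an assumed biological coefficient of variation of 0.4 and an adjusted p of at most 0.01, 2 of the 4 genes were called lower in INA-treated *npr1-1* than in INA-treated Col in place of 4, and in INA-treated *hac1/5* 0 were called lower in place of 2 and 0 higher in place of 1. *SARD4* also lost its call at 0.4 between INA- and water-treated Col (adjusted p = 0.0291), between INA-treated *hac1/5* and water-treated Col (0.0440) and between the 2 mutants (0.305), which left 3 of the 4 genes called higher in each. With a variation of 0.2, 0 were called higher in INA-treated *hac1/5*, while *ALD1* (adjusted p = 0.000293) and *FMO1* (0.00405) passed as lower. A log2 ratio of 1.5 also left 0 called higher in INA-treated *hac1/5*, since *LLP1* is at 1.25. The size of the true variation cannot be estimated from 1 library a condition. No paired analysis was possible because each condition has 1 library. The folds of *ALD1* and *FMO1* against a count of 0 rest on the 3 reads put in its place. Over all genes the counts also moved. At a log2 ratio of 1.5 the genes called higher numbered 2137 in place of 3497 for INA- against water-treated Col, and those called lower 1992 in place of 3286 for *npr1-1* against Col with INA. For *hac1/5* against Col with INA, 490 in place of 1361 were higher and 985 in place of 1621 lower, and on the log2(RPKM + 1) scale 568 were higher. Setting the median gene to 0 moved log2 ratios by 0.18 for INA- against water-treated Col, 0.13 for *hac1/5* against Col with INA and 0.33 for *hac1/5* with INA against water-treated Col.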

Other observations

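Flavin monooxygenase genes other than *FMO1*, described as such in the tables, numbered 19. Of these, 11 were tested for INA-treated *hac1/5* against INA-treated Col, and 6 were called lower and 1 higher, with a median log2 ratio of -1.28 beside 0.13 over all genes, of which 10.7% were called lower and 9.02% higher. The S-oxygenase genes of glucosinolate metabolism *FMO GS-OX1*, *FMO GS-OX3* and *FMO GS-OX4*, named after their values were seen, had 697, 1278 and 208 reads in INA-treated Col and 120, 204 and 24 in INA-treated *hac1/5*, which is 5.64-, 6.09- and 8.42-fold lower. Unlike *FMO1*, they were within 2-fold of water-treated Col in INA-treated Col (ratios 0.949, 0.951 and 1.27). *FMO GS-OX2* had 51 reads with water, and with INA 40 in Col, 221 in *npr1-1* and 1 in *hac1/5*. The 3 flavin monooxygenase genes with the largest change by INA after *FMO1* were AT1G12160 (4 reads with water, and 14, 0 and 108 with INA in Col, *npr1-1* and *hac1/5*), AT1G12200 (in the same order 79, 201, 76 and 34) and AT1G62600 (204, 434, 225 and 503). The genes of this family are alike, and how the counting treated shared reads is not given in the sources used here.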
